A study of Mus musculus with 20 samples.

Results

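The 9 genes Pdgfb, Pdgfrb, Rgs5, Cspg4, Mcam, Ptn, Sfrp2, Serpine2 and Gata3 were followed through the microvascular compartments of the mouse kidney cortex. They are known from mesangial cells and pericytes, except that Pdgfb encodes a growth factor released by endothelium that recruits these cells. They were selected by their symbols among the 34255 genes of the deposited read count table, all 9 were found, and all 9 passed the filter on low counts. The groups were 4 compartments cut from kidney sections by laser microdissection, namely arterioles, glomeruli, the capillaries around the tubules (peritubular capillaries) and the venules that drain them (post-capillary venules), and whole kidney without microdissection as the reference, with 4 libraries for each of these 5 groups. Every group came from healthy young adult male C57BL6/OlaHsd mice of wild-type (WT) genotype, and no group was treated. A compartment was recognized by its shape, or for peritubular capillaries by lectin staining, so each sample holds whatever cells lay within the cut outline. Replicates are labelled as biological. By the study's methods the compartments were collected mouse by mouse, so libraries of different compartments may come from the same mouse, but no label ties a library to a mouse. Microdissected libraries went through a low-input protocol with more PCR cycles than whole kidney libraries, and this cannot be told apart from a difference between a compartment and whole kidney.

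Pericytes are contractile cells that sit on the outside of capillaries and small venules, and mesangial cells are their counterparts inside the glomerular tuft, where they hold the capillary loops together. Both are recruited during development by PDGF-B, a growth factor released by endothelium, which binds PDGFRβ on the mural cell. Many genes used as pericyte markers are also transcribed in the smooth muscle of arterioles and in fibroblasts, so no single gene defines the cell type.

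Libraries held 4639090 to 12283098 counts. Microdissected libraries had counts for 11339 to 14164 genes, and whole kidney libraries for 18272 to 20474. More genes thus stood at 0 counts in microdissected libraries, and the cause of this was not tested. Each library carries a number in the deposited table, 93, 96, 98 or 100, and 4 values in a row below are always in that order. Levels are in CPM, which are counts scaled to a common library total by the TMM method, and are compared between groups and not between genes. Against whole kidney, a call needed an adjusted p-value (FDR) under 0.05 and a log2 fold change past 1 in either direction, with edgeR's quasi-likelihood test over 13813 genes. Among the 4 compartments, a difference was called at FDR under 0.05 over 12179 genes. Shares of all genes called refer to these main tests and not to the alternative settings named below. In such bulk samples, fewer cells of a type and less RNA per cell cannot be told apart.

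Summed, the 9 genes took 0.498% ± 0.0736 of all counts in arterioles (SD, n = 4), 0.199% ± 0.0357 in glomeruli and 0.0180% ± 0.00208 in the reference. In post-capillary venules their share was 0.0373% ± 0.00526 and in peritubular capillaries 0.0145% ± 0.00438. Most of the arteriolar sum was Rgs5, with 124931 counts over the arteriole libraries, followed by Cspg4 with 15344. In glomeruli, Serpine2 held 14878 counts and Rgs5 10538. Without Rgs5, the remaining genes took a smaller share in arterioles than in glomeruli. Against whole kidney, 6 of the 9 genes were called higher in arterioles (Rgs5, Cspg4, Mcam, Serpine2, Gata3 and Pdgfrb), where 5.78% of all genes tested were called higher. In glomeruli 6 of 9 were called higher (Ptn, Sfrp2, Serpine2, Rgs5, Pdgfrb and Gata3), against 1.59% of all genes. In post-capillary venules 1 of 9, Rgs5, was called higher, against 0.203% of all genes. In peritubular capillaries 0 of 9 were called in either direction by edgeR, where 0.0869% of all genes were called higher and 0.00724% lower; 2 of the 9 had an unadjusted p under 0.05, and DESeq2 called 1, Sfrp2. The median log2 fold change of the 9 genes was 3.53 in arterioles, 2.67 in glomeruli, 1.06 in venules and -0.61 in peritubular capillaries, beside medians over all genes of 0.22, 0.25, 0.19 and 0.18. With DESeq2's scaling the median of all genes in arterioles was 0.39 in place of 0.22 with TMM. An arteriolar value is thus best read relative to the median of its own scaling. The 4 comparisons share the same whole kidney libraries.

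**Figure D1:**
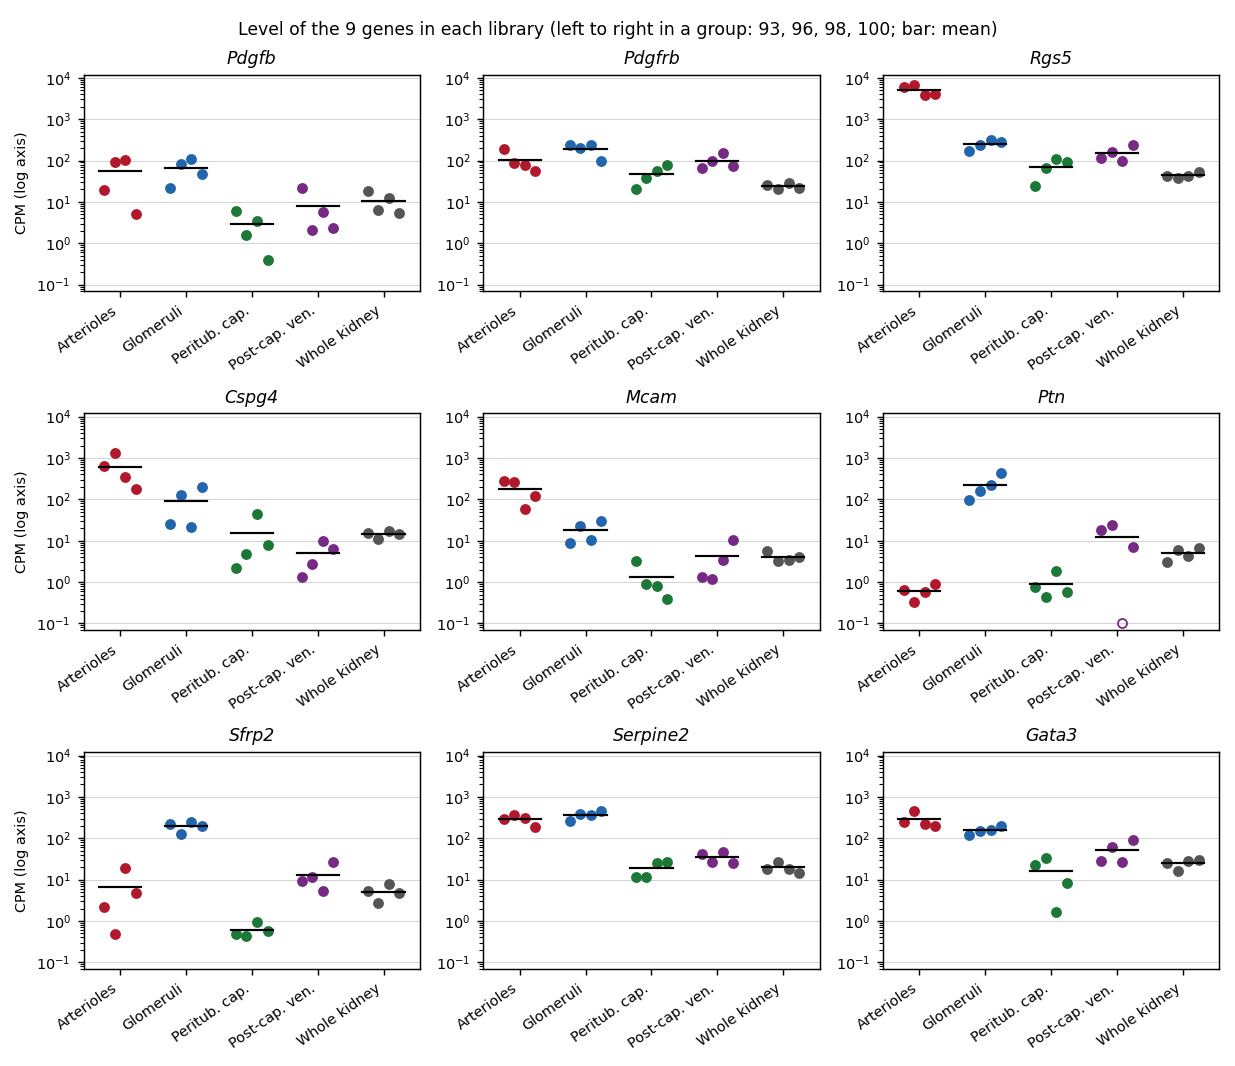
Level of each gene in every library, in CPM on a log axis, with 1 panel per gene and the 5 groups side by side. Each point is a library, ordered 93, 96, 98 and 100 within a group, the bar is the group mean, and the open circle near the bottom of the Ptn panel is a venule library with 0 counts. The 4 arteriole libraries lie above all others for Rgs5, Mcam and Gata3, and 3 of the 4 do for Cspg4. For Gata3 the margin is narrow, with 202.7 CPM in the lowest arteriole and 200.8 CPM in the highest glomerular library. The 4 glomerular libraries lie above all others for Ptn and Sfrp2. The share of all genes that separate in this way is not given here.

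Rgs5 and Cspg4 had their highest mean in arterioles and Ptn and Sfrp2 in glomeruli, and the sequences before their starts are shown so that these contrasting genes can be set side by side. They come from RefSeq promoters of build GRCm38.p6, which held 7 of the 9 genes. Each begins 250 bases before the RefSeq start, runs in the direction of the gene and ends at that start or, if earlier, before the first exon base of GENCODE M21. Capitals mark matches, on either strand, to any of 7 motifs: the CArG box of serum response factor, GATA, the GC box GGGCGG, the TATA box TATAAA, the CCAAT box, the RBPJ core TGGGAA and the E box CANNTG. Rgs5 lies at chr1:169655251-169655500 on the plus strand, Cspg4 at chr9:56864854-56865032 on the plus strand, Ptn at chr6:36810221-36810429 on the minus strand and Sfrp2 at chr3:83766071-83766320 on the plus strand.
Rgs5: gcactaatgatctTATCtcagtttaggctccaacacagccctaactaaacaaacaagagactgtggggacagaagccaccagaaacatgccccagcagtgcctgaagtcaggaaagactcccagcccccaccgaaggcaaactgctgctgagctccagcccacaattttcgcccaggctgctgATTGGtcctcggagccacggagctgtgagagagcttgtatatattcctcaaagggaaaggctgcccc
Cspg4: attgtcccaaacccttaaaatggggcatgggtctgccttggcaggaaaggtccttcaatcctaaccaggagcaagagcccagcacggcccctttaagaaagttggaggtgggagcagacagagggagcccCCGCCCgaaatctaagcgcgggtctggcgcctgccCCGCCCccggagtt
Ptn: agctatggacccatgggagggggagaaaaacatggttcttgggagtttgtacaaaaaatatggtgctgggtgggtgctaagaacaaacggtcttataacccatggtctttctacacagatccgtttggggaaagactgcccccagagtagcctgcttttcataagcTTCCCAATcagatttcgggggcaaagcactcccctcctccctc
Sfrp2: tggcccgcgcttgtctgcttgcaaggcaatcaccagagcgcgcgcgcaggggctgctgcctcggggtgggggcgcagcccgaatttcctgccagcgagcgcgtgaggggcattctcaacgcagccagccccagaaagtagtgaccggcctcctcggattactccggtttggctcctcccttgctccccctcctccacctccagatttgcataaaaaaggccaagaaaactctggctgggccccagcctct

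The Rgs5 window held 1 GATA match, read as TATC, and 1 CCAAT box, read as ATTGG. The Cspg4 window held 2 GC boxes, and the Ptn window 1 CCAAT box that overlapped 1 RBPJ core. In the Sfrp2 window none of the 7 motifs was found, and no CArG box was found in any of the 7 windows of these genes. Over all 32851 windows of 250 bases before a start, the share with at least 1 match was 1.47% for the CArG box, 53.6% for GATA, 32.7% for the GC box, 12.4% for the TATA box, 33.8% for the CCAAT box, 21.6% for the RBPJ core and 66.2% for the E box. These matches describe letters and are not known binding sites.

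The ligand and its receptor come first. Pdgfb, which encodes the B chain of PDGF and lies on chromosome 15 (79995874 to 80014977 of GRCm38, minus strand), stood at 19.6, 92.1, 103.7 and 4.997 CPM in arterioles and at 21.9, 84.3, 111.0 and 47.1 CPM in glomeruli. In whole kidney it stood at 18.1, 6.22, 12.2 and 5.29 CPM. The arteriole libraries thus spread over the whole range from below the lowest whole kidney library to far above the highest, whereas all 4 glomerular libraries lay above whole kidney. In peritubular capillaries the values were 6.09, 1.62, 3.50 and 0.391 CPM and in venules 22.0, 2.07, 5.74 and 2.28 CPM. No comparison of Pdgfb passed in edgeR's version 3 test with all libraries. The log2 fold change to whole kidney was 2.40 ± 1.27 (SE) in arterioles (FDR 0.182) and 2.66 ± 1.29 in glomeruli (FDR 0.314), and the glomerular and arteriolar means of 66.1 and 55.1 CPM gave FDR 0.946 against each other. Other settings did call it. Against whole kidney, Pdgfb passed in arterioles with DESeq2 (FDR 0.0286) and with edgeR's version 4 form (0.0276), and in glomeruli with the version 4 form (0.0263) and in a fit of these groups alone (0.0101), but not with DESeq2 (0.0863). Against peritubular capillaries, the difference of 4.24 ± 1.55 in arterioles (FDR 0.0683) passed with DESeq2, with the version 4 form and without arteriole 100 (FDR 0.0421), and that of 4.50 ± 1.57 in glomeruli (FDR 0.0945) passed with DESeq2, with the version 4 form and in a fit of these groups alone. The sign of the difference between arterioles and glomeruli turned with DESeq2's scaling (-0.26 with TMM and 0.07 with DESeq2's scaling, on the log2 scale).

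Pdgfrb, the receptor by which mural cells respond to PDGF-B, was called higher than whole kidney in arterioles and in glomeruli. Its levels were 185.5, 85.3, 76.4 and 56.4 CPM in arterioles, 233.1, 200.6, 241.7 and 97.9 CPM in glomeruli, and 26.1, 21.1, 28.4 and 22.0 CPM in whole kidney. Neither the arteriole nor the glomerular libraries overlapped with whole kidney. The log2 fold change was 2.99 ± 0.72 in glomeruli (SE, FDR 0.0118) and 2.05 ± 0.69 in arterioles (FDR 0.0485). Venules, at 66.1, 97.96, 148.4 and 73.7 CPM, also lay above every whole kidney library, with a log2 fold change of 1.98 ± 0.69 that did not pass (FDR 0.293), and peritubular capillaries ranged from 20.01 to 78.4 CPM (0.98 ± 0.67, FDR 0.627). The venule difference of Pdgfrb passed with DESeq2 (FDR 0.0477) and in a fit of venules and whole kidney alone (FDR 0.00916). Arterioles and venules differed by 0.06 ± 0.74 (FDR 0.980). In order of mean level, glomeruli (193 CPM), arterioles (101), venules (96.5), peritubular capillaries (48.0) and whole kidney (24.4) formed an order in which no neighbours passed against each other and all neighbouring ranges overlapped. The arteriolar call of Pdgfrb ended without arteriole 93 (FDR 0.118) or without any 1 whole kidney library (FDR 0.101 to 0.116), and the glomerular call ended without glomerulus 98 (0.0509) or any 1 whole kidney library (0.0537 to 0.0678). Both calls of Pdgfrb also ended without the filter on low counts (FDR 0.118 and 0.0599), and the arteriolar call with the library number as a block (0.0665).

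Among the other PDGF genes, Pdgfa, the A chain of the growth factor, stood at 234.5, 430.4, 529.5 and 456.9 CPM in arterioles against 34.3 to 45.4 CPM in whole kidney (log2 fold change 3.30 ± 0.62, FDR 0.000321). All 4 arteriole libraries lay above whole kidney. In glomeruli Pdgfa stood at 86.7 to 205 CPM (1.85, FDR 0.0733). Pdgfd, another ligand of PDGFRβ, stood at 16.8 to 300.5 CPM in arterioles against 6.38 to 10.9 CPM in whole kidney, a difference that did not pass (3.72, FDR 0.101). Of the 7 genes of PDGF ligands and receptors, 6 were tested. Those called higher were Pdgfa and Pdgfrb in arterioles and Pdgfrb in glomeruli, where 5.78% and 1.59% of all genes were called higher.

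Rgs5 encodes a regulator of G protein signalling that shortens the response to vasoconstrictors, and is a much used marker of pericytes and arteriolar smooth muscle. It lies on chromosome 1 (169655501 to 169695813, plus strand). Its levels in arterioles were 6026, 6530, 3814 and 3956 CPM, against 41.6, 36.9, 42.7 and 53.1 CPM in whole kidney. The lowest arteriole library thus stood far above the highest library of any other group. The ratio of means was 117, and the log2 fold change 6.87 ± 0.46 (SE, FDR 5.31e-14). Glomeruli held 172.4, 240.2, 322.4 and 276.4 CPM (log2 fold change 2.54 ± 0.37, FDR 2.25e-05), and venules 117.5, 157.5, 95.6 and 235.6 CPM (1.80 ± 0.36, FDR 0.0105). Both groups lay wholly above whole kidney. In peritubular capillaries the 24.5, 64.8, 107.0 and 89.8 CPM overlapped with whole kidney (0.71 ± 0.36, FDR 0.406). Arterioles differed from glomeruli by a factor of 20.1 in mean level (4.33 ± 0.43, FDR 5.47e-09), and below them no neighbours in the order of glomeruli, venules, peritubular capillaries and whole kidney passed against each other (FDR 0.259 to 0.482). The venule call of Rgs5 ended without venule 100 (FDR 0.119) and without whole kidney 93, 96 or 98 (0.0731, 0.0748 and 0.0726).

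Rgs5 belongs to the R4 family of RGS proteins, of which 9 genes were in the table and 4, Rgs5 included, had enough counts to be tested. Rgs2, which also limits vasoconstrictor signalling, stood at 385.6, 264.2, 337.1 and 335.3 CPM in arterioles and at 256.9, 257.4, 465.3 and 565.5 CPM in glomeruli, against 28.7 to 62.7 CPM in whole kidney. It was called higher in both (2.85 ± 0.74, FDR 0.0102, and 3.07 ± 0.75, FDR 0.0126). Rgs4 reached 48.4 to 161.6 CPM in arterioles (4.11, FDR 0.0578) and Rgs3 0.161 to 248.8 CPM (4.93, FDR 0.0537), and neither passed.

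Cspg4 encodes the NG2 proteoglycan, a surface protein of pericytes and of vascular smooth muscle (chromosome 9, 56865033 to 56899870, plus strand). Arterioles held 633.1, 1335, 348.5 and 175.4 CPM against 15.3, 11.1, 17.3 and 14.7 CPM in whole kidney. All 4 lay above whole kidney, but they spread over a wide range. The log2 fold change was 5.41 ± 0.93 (SE, FDR 9.10e-05), and 4.72 without arteriole 96. Glomeruli held 25.6, 126.5, 21.4 and 198.3 CPM, all above whole kidney, yet the difference did not pass (2.67 ± 0.82, FDR 0.0644). The glomerular difference of Cspg4 passed with DESeq2 (FDR 0.0413), with edgeR's version 4 form (0.0169), without the filter on low counts (0.0179) and in a fit of these groups alone (0.0192). Venules, at 1.34, 2.80, 9.63 and 6.30 CPM, lay wholly below whole kidney, also without passing (-1.55 ± 0.80, FDR 0.574). Peritubular capillaries held 2.24, 4.87 and 8.02 CPM in libraries 93, 96 and 100, and 45.2 CPM in library 98, above every whole kidney library. The fitted difference of peritubular capillaries from whole kidney was 0.05 with that library and -1.54 without it. Arterioles exceeded peritubular capillaries by 5.37 ± 0.98 on the log2 scale (FDR 0.000208), and by 6.95 without capillary 98.

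Mcam encodes the adhesion molecule CD146 of endothelium and mural cells (chromosome 9, 44134469 to 44142727, plus strand). Its levels were 271.2, 261.4, 58.6 and 121.2 CPM in arterioles and 5.57, 3.23, 3.50 and 4.16 CPM in whole kidney, with no overlap. The log2 fold change of Mcam was 5.43 ± 1.22 (SE, FDR 0.00271). Glomeruli held 9.02, 22.9, 10.3 and 29.999 CPM, wholly above whole kidney but short of the threshold (2.13 ± 1.05, FDR 0.332). Venules held 1.34, 1.22, 3.52 and 10.6 CPM, and peritubular capillaries 3.23, 0.885, 0.816 and 0.391 CPM. The latter rest on 26, 6, 7 and 2 counts, so that a lower level there was near the limit of detection. Arterioles did not overlap with glomeruli for Mcam, and the mean was 9.87 times higher, but the comparison did not pass (3.30 ± 1.22, FDR 0.139). Gm10687, a gene on the opposite strand that shares 17 exon bases with Mcam, held 636 counts over the 4 arteriole libraries, 169 in glomeruli, 2 in peritubular capillaries, 36 in venules and 21 in whole kidney. As no source used here gives the strand setting of the counting, reads of Mcam and Gm10687 cannot be told apart in the shared bases.

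The list of ligands and partners of NG2 and CD146 had 9 genes, all tested. Of these, 5 were called higher in arterioles, against 5.78% of all genes, and 1 in glomeruli, against 1.59%. Itgb1, an integrin chain, stood at 1263, 1710, 744.2 and 620.3 CPM in arterioles and at 596 to 849 CPM in glomeruli, against 126 to 168 CPM in whole kidney (2.92 ± 0.40, FDR 2.17e-06, and 2.38 ± 0.39, FDR 0.000147). The collagen VI chains Col6a2 and Col6a1, ligands of NG2, were higher in arterioles by 4.68 ± 1.06 (FDR 0.00302) and 4.14 ± 1.04 (FDR 0.00782). They stood in whole kidney at 8.47 and 10.3 CPM on average.

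Ptn and Sfrp2 stood highest in glomeruli. Ptn encodes pleiotrophin, a secreted growth factor that binds heparin (chromosome 6, 36714929 to 36810220, minus strand). Glomeruli held 95.2, 162.7, 225.1 and 432.0 CPM, against 3.04, 6.10, 4.32 and 6.71 CPM in whole kidney. Arterioles held 0.640, 0.322, 0.562 and 0.892 CPM, which rest on 3, 2, 5 and 5 counts, and peritubular capillaries held 0.746, 0.442, 1.87 and 0.587 CPM, on 6, 3, 16 and 3 counts. Glomeruli thus lay wholly above whole kidney, and both of these compartments wholly below it. The log2 fold change to whole kidney was 5.50 ± 1.23 in glomeruli (SE, FDR 0.00581), -3.04 ± 1.13 in arterioles (FDR 0.0668) and -2.44 ± 1.09 in peritubular capillaries (FDR 0.344). The arteriolar difference of Ptn passed with DESeq2 (FDR 0.0126) and in a fit of these groups alone (0.00600). Venules were uneven, at 18.03, 24.2 and 7.23 CPM in libraries 93, 96 and 100 and with 0 counts in library 98. That library had the lowest total of the 20 but held 801 counts of Pdgfrb, and the cause of the 0 for Ptn was not tested. The log2 difference of arterioles from glomeruli was -8.53 ± 1.54 (FDR 0.000592), and glomeruli exceeded peritubular capillaries by 7.94 ± 1.496 (FDR 0.000533). The glomerular call of Ptn against whole kidney ended without glomerulus 100 (FDR 0.0740).

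Sfrp2 encodes a secreted protein that binds Wnt ligands (chromosome 3, 83766321 to 83774316, plus strand). It stood at 221.6, 129.2, 249.0 and 199.96 CPM in glomeruli, against 5.27, 2.76, 7.88 and 4.72 CPM in whole kidney. The lowest glomerular library exceeded every library of the other groups. The log2 fold change was 5.27 ± 1.17 (SE, FDR 0.00581). Arterioles held 2.13, 0.483, 18.8 and 4.82 CPM, on both sides of whole kidney (0.35 ± 0.98, FDR 0.834, and -1.06 without arteriole 98). Peritubular capillaries held 0.497, 0.442, 0.933 and 0.587 CPM, on 4, 3, 8 and 3 counts, wholly below whole kidney (-3.03 ± 1.08, FDR 0.270). Venules held 9.52, 11.5, 5.37 and 26.5 CPM (1.36 ± 1.00, FDR 0.889). Gm26771, on the opposite strand, shares 347 exon bases with Sfrp2. It held 10 counts over the whole kidney libraries and 0 in each compartment. As for Mcam, reads in the shared bases cannot be told apart. Neither Ptn nor Sfrp2 overlapped between glomeruli and venules, with means 18.5 and 15.1 times higher in glomeruli, but these differences did not pass (4.20 ± 1.25, FDR 0.0940, and 3.91 ± 1.21, FDR 0.111). They passed with DESeq2, with edgeR's version 4 form and in a fit of these groups alone.

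Of the 9 genes of pleiotrophin, midkine and their receptors, 8 were tested. Ptn was the 1 called higher in glomeruli, against 1.59% of all genes. In arterioles 3 were called higher and 1 lower, where 5.78% of all genes were called higher and 5.50% lower. Those included Ncl, nucleolin, a surface receptor of pleiotrophin (1.47 ± 0.43, FDR 0.0245), and Lrp1, an endocytic receptor (2.58 ± 0.75, FDR 0.0231), while Sdc4, a heparan sulfate proteoglycan, was lower (-2.42 ± 0.71, FDR 0.0230). Sdc4 stood at 9.38, 3.54 and 5.73 CPM in arterioles 93, 96 and 98 but at 122.2 CPM in arteriole 100, against 157 to 248 CPM in whole kidney. Of the 5 secreted frizzled-related proteins 4 were tested. Sfrp4 was called higher in arterioles (5.61 ± 1.80, FDR 0.0392), although it stood at 446.5 and 71.2 CPM in libraries 96 and 98, at 0.357 CPM in library 100 and at 0 counts in library 93. Sfrp1 stood between 85.5 and 105.6 CPM in whole kidney and was called in no compartment.

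Serpine2 and Gata3 were high in both arterioles and glomeruli. Serpine2 encodes protease nexin 1, a serpin that inhibits thrombin and plasminogen activators (chromosome 1, 79794197 to 79861180, minus strand). It stood at 290.8, 355.6, 301.5 and 189.9 CPM in arterioles, at 267.1, 384.3, 357.9 and 456.7 CPM in glomeruli and at 18.1, 27.4, 18.6 and 14.7 CPM in whole kidney. Both compartments lay wholly above whole kidney, with log2 fold changes of 3.85 ± 0.60 (SE, FDR 2.37e-05) and 4.22 ± 0.61 (FDR 1.88e-05), and their difference from each other did not pass (-0.37 ± 0.60 for arterioles against glomeruli, FDR 0.818). Venules, at 41.7, 26.7, 47.4 and 25.7 CPM, and peritubular capillaries, at 11.7, 11.7, 25.9 and 27.0 CPM, overlapped with whole kidney and did not pass (0.84, FDR 0.800, and -0.05, FDR 0.988). Each of the higher pair differed from each of the lower pair (FDR 5.99e-05 to 0.00376). No alternative and no single library ended a call of Serpine2 named here.

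Of the 10 genes of serine proteases and serpin partners of Serpine2, 9 were tested. Of them, 3 were called higher in arterioles, against 5.78% of all genes, and Serpine2 alone in glomeruli, against 1.59%. Serping1, the inhibitor of complement C1, was higher in arterioles at 733.3, 993.4, 975.6 and 458.6 CPM against 104 to 128 CPM in whole kidney (2.79 ± 0.55, FDR 0.000566). Plat, tissue plasminogen activator, stood at 61.7 to 443.4 CPM in glomeruli against 5.07 to 20.8 CPM in whole kidney, with no overlap, and did not pass (3.91, FDR 0.0770).

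Gata3 encodes a transcription factor of mesangial cells and of the collecting duct (chromosome 2, 9857078 to 9890034, minus strand). Arterioles held 244.7, 465.1, 227.1 and 202.7 CPM, glomeruli 121.4, 148.3, 158.2 and 200.8 CPM, and whole kidney 24.6, 16.6, 27.7 and 29.7 CPM. The 3 groups did not overlap. Gata3 was higher than whole kidney by 3.53 ± 0.76 on the log2 scale in arterioles (SE, FDR 0.00182) and by 2.67 ± 0.74 in glomeruli (FDR 0.0336), and arterioles and glomeruli did not pass against each other (0.86 ± 0.77, FDR 0.614). Venules held 28.2, 60.5, 26.1 and 91.1 CPM (1.06 ± 0.70, FDR 0.821), and peritubular capillaries 22.0, 32.4, 1.63 and 8.41 CPM (-0.61 ± 0.70, FDR 0.847), both overlapping with whole kidney. The glomerular call of Gata3 ended without any 1 of the 8 libraries compared, glomeruli or whole kidney 93, 96, 98 or 100 (FDR 0.0637 to 0.134), and without the filter on low counts (0.0714). The gene 9230102O04Rik overlaps 77 exon bases of Gata3 on the same strand and held 5 counts over the arteriole libraries, 112 in glomeruli, 3 in peritubular capillaries, 167 in venules and 161 in whole kidney. Gm13256, on the opposite strand, shares 155 exon bases with Gata3 and was not among the counted genes. Of the 8 GATA factors and cofactors 5 were tested. Gata6, known from smooth muscle, was higher in arterioles at 153.7, 173.4, 56.1 and 130.5 CPM against 4.15 to 5.97 CPM in whole kidney (4.77 ± 1.56, FDR 0.0418), and stood at 0 to 7.64 CPM in glomeruli.

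**Figure D2:**
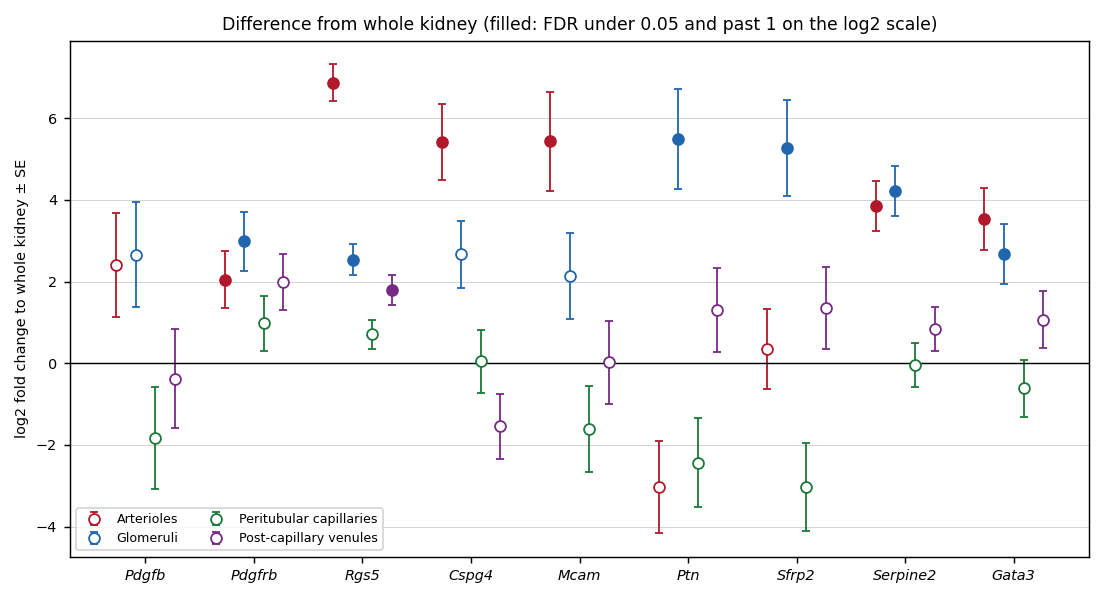
Log2 fold change of each gene to whole kidney with its standard error, for the 4 compartments in 4 colours. Filled points passed FDR under 0.05 and a log2 fold change past 1. The largest filled value is Rgs5 in arterioles at 6.87, the glomerular values of Ptn and Sfrp2 are 5.50 and 5.27, and no peritubular capillary point is filled.

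The 4 compartments were then compared with one another, without whole kidney, so that all libraries were microdissected. Arterioles, glomeruli and venules were cut from slides stained with hematoxylin and peritubular capillaries from other slides stained with a fluorescent lectin, and the area collected was larger for glomeruli and venules than for arterioles and peritubular capillaries. Slide, stain and area cannot be told apart from the compartment. Against the mean of the other 3 compartments, arterioles were higher for 5 of the 9 genes, where 8.11% of all genes were called higher, and lower for Ptn, where 3.23% were called lower. The 5 were Rgs5 (5.18 ± 0.29, FDR 1.03e-16), Cspg4 (5.02 ± 0.62, FDR 1.70e-07), Mcam (5.25 ± 0.85, FDR 2.98e-05), Serpine2 (2.18 ± 0.45, FDR 0.000832) and Gata3 (2.49 ± 0.57, FDR 0.00251). Ptn was lower by -4.48 ± 1.23 (FDR 0.0133), a call that ended without glomerulus 100 (FDR 0.0619) and with the version 4 form (FDR 0.219). Cspg4 moved to 4.38 without arteriole 96. Glomeruli were higher for 3 of 9, against 2.46% of all genes: Ptn (6.89 ± 0.89, FDR 1.36e-06), Sfrp2 (5.71 ± 0.83, FDR 1.51e-05) and Serpine2 (2.67 ± 0.45, FDR 0.000148). These contrasts share libraries, and the mean against which arterioles were set contains glomeruli, and the reverse.

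Peritubular capillaries were lower than the mean of the other 3 compartments for 6 of the 9 genes, against 2.91% of all genes. They were Rgs5 (-3.02 ± 0.37, FDR 4.89e-07), Serpine2 (-3.02 ± 0.60, FDR 0.000757), Sfrp2 (-5.36 ± 1.25, FDR 0.00461), Gata3 (-3.03 ± 0.76, FDR 0.00886), Mcam (-4.14 ± 1.202, FDR 0.0273) and Ptn (-3.70 ± 1.16, FDR 0.0445). Gata3 moved to -3.63 without capillary 96. The call of Mcam ended without arteriole 93 or without capillary 96, 98 or 100 (FDR 0.0548 to 0.0868), with the block (0.0560) and with the version 4 form (0.0844), and its value moved to -5.05 without capillary 93. The call of Ptn ended without any 1 glomerular or capillary library or without venule 93 or 96 (FDR 0.0576 to 0.141), with the block (0.0814), with DESeq2's scaling (0.0513) and with the version 4 form (0.455), and its value moved to -4.31 without capillary 98. DESeq2 called all 9 genes lower, but the share of all genes that it called lower is not given here. Venules were lower for 2 of 9, against 0.181% of all genes, namely Cspg4 (-4.25 ± 0.88, FDR 0.0116) and Rgs5 (-1.57 ± 0.34, FDR 0.0166). The call of Cspg4 ended without venule 93, 96 or 100 (FDR 0.0509 to 0.0652), and that of Rgs5 without venule 93, 96 or 98 (FDR 0.0567 to 0.0854). Rgs5 in venules thus lay above whole kidney and below the mean of the other compartments, which includes arterioles.

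Pair by pair, arterioles and glomeruli differed in 3 of the 9 genes. Rgs5 was higher in arterioles, where 1.33% of all genes were called higher, and Ptn and Sfrp2 were higher in glomeruli, where 0.862% of all genes were. The difference of Sfrp2 was -4.92 ± 1.27 (FDR 0.0251), and its call ended without arteriole 93 (FDR 0.0559) or glomerulus 93, 96, 98 or 100 (FDR 0.115, 0.0588, 0.118 and 0.0918), with a value of -6.32 without arteriole 98. Cspg4 was 6.70 times higher in the arteriolar mean without passing (2.74 ± 0.87, FDR 0.0869), and was called together with Mcam by DESeq2 and by edgeR's version 4 form, and alone with DESeq2's scaling in edgeR and without the filter on low counts.

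Arterioles exceeded peritubular capillaries in 5 of 9 (Rgs5, Serpine2, Cspg4, Mcam and Gata3), against 6.22% of all genes, and venules in 4 of 9 (Rgs5, Cspg4, Serpine2 and Mcam), against 2.50%. The largest of these differences was that of Mcam from peritubular capillaries, at 7.04 ± 1.46 (FDR 0.00104), or 7.95 without capillary 93. Gata3 exceeded peritubular capillaries by 4.14 ± 0.86 (FDR 0.00113), or by 4.73 without capillary 96, and venules by 2.46 ± 0.80 without passing (FDR 0.0688), although it passed with DESeq2, with its scaling in edgeR and with the version 4 form. Ptn was lower in arterioles than in venules (-4.33 ± 1.29, FDR 0.0438), where 1.87% of all genes were called lower, and this call ended without any 1 arteriole library or without venule 93, 96 or 100 (FDR 0.0507 to 0.111), with the block (0.0720), with DESeq2's scaling (0.0644) and with the version 4 form (0.196). Cspg4 exceeded venules by 6.95 ± 1.05 (FDR 3.93e-05), or 6.28 without arteriole 96. Mcam exceeded venules by 5.41 ± 1.35 (FDR 0.0137), a call that ended without venule 93, 96 or 98 (FDR 0.05003 to 0.0616) and whose value was 6.45 without venule 100.

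Glomeruli exceeded peritubular capillaries in 5 of 9, against 2.20% of all genes. These were Sfrp2 (8.30 ± 1.49, FDR 0.000264), Ptn, Serpine2 (4.27 ± 0.69, FDR 5.99e-05), Rgs5 (1.82 ± 0.39, FDR 0.00221) and Gata3 (3.28 ± 0.83, FDR 0.0126). The value of Ptn was 8.55 and that of Gata3 3.87 without capillary 98 and 96, respectively. Against venules, glomeruli were higher in 2 of 9, against 0.493% of all genes: Serpine2 (3.37 ± 0.66, FDR 0.00283) and Cspg4 (4.21 ± 0.93, FDR 0.0114). The call of Cspg4 ended without glomerulus 100 (FDR 0.0676, 3.53) or venule 93 or 96 (FDR 0.0559 and 0.0534). Peritubular capillaries and venules differed in 0 of 9 by edgeR, where 0.0821% of all genes were called higher and 0.328% lower in capillaries, 4 of the 9 had an unadjusted p under 0.05, and DESeq2 called 2, Ptn and Sfrp2. The log2 difference of capillaries from venules was negative for 8 of the 9 genes and positive for Cspg4. Its median was -1.47 over the 9 genes and 0.039 over all genes, and the share of all genes with a negative difference is not given here.

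The likeness of the 9 profiles was described by the root mean square difference of log2 CPM, after each gene was centred, over the 20 libraries. The closest pairs were Serpine2 with Gata3 (1.28), Pdgfrb with Serpine2 (1.31), Rgs5 with Mcam (1.33) and Cspg4 with Mcam (1.37). Ptn was closest to Sfrp2 (1.64) and farthest from Rgs5 (4.26). Over all 20 libraries, the profile nearest to Rgs5 was that of Myl9, a smooth muscle myosin light chain (0.623), followed by Flna, filamin A (0.692), and Wtip (0.876). Cspg4 was nearest to Prkg1, the cGMP-dependent kinase of smooth muscle (1.34), then to Mcam and to Sorbs2 (1.38), and Mcam was nearest to Sorbs2 (1.08), Fxyd1 (1.10) and Actn1 (1.12). Genes close to Ptn included Adcy1 (1.39) and Hs3st6 (1.40), and Sfrp2 was nearest to Pdpn, podoplanin (0.778), Thsd7a (1.19) and Foxd2 (1.39). Serpine2 was nearest to Synpo (0.722), Dlc1 (0.742) and Slc9a3r2 (0.760). Synpo encodes the actin-associated synaptopodin and is among the podocyte genes counted below. Gata3 was nearest to Bnip2 (0.617), Klf3 (0.815) and Ptprb, an endothelial phosphatase (0.837). Pdgfrb was nearest to Flt1, a VEGF receptor of endothelium (0.678), Myh9 (0.718) and Trim35 (0.748), and Pdgfb to Fryl (1.05), Gxylt2 (1.24) and Myadm (1.26). These distances share libraries and depth, and carry no test.

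Other genes known from the same cells were counted alongside. Of 15 other mesangial genes 14 were tested. Itga8, the integrin chain that marks mesangial cells, was called higher in arterioles (5.13 ± 1.03, FDR 0.000802) and in glomeruli (3.54 ± 0.96, FDR 0.0296). It stood evenly at 80.4, 97.1, 79.2 and 101.4 CPM in glomeruli, but at 36.5, 854.1, 137.5 and 46.2 CPM in arterioles, against 5.87 to 8.84 CPM in whole kidney. Des, the filament protein desmin, was also called higher in both (3.38 ± 0.98, FDR 0.0221, and 4.01 ± 1.01, FDR 0.0168). Des is counted among the smooth muscle contractile genes below as well.

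Ren1, which encodes renin and is transcribed in juxtaglomerular cells where the arteriole enters the glomerulus, was called in opposite directions. It stood at 693.9, 1320, 720.8 and 1632 CPM in glomeruli against 47.1, 44.6, 49.6 and 49.2 CPM in whole kidney (4.52 ± 0.84, FDR 0.000737). In arterioles it stood at 4.90, 25.9, 2.92 and 4.82 CPM and was lower than whole kidney (-2.30 ± 0.76, FDR 0.0448). Nt5e, the ecto-5′-nucleotidase, was lower in arterioles as well (-5.40 ± 1.35, FDR 0.00722). The list thus had 2 genes higher and 2 lower in arterioles, where 5.78% of all genes were called higher and 5.50% lower. In glomeruli 3 were higher and 0 lower, where 1.59% of all genes were called higher and 1.47% lower. In venules and peritubular capillaries 0 were called. There, 0.203% and 0.0869% of all genes were called higher and 0.0217% and 0.00724% lower, respectively. The list's median log2 fold change was 2.44 in glomeruli, 2.33 in arterioles, 0.94 in venules and -0.12 in peritubular capillaries.

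Of 15 other pericyte genes 13 were tested against whole kidney. Of these, 3 were called, all higher in arterioles, where 5.78% of all genes were called higher. Notch3, the Notch receptor of arterial smooth muscle and pericytes, stood at 790.0, 707.6, 414.4 and 351.6 CPM in arterioles against 6.89 to 10.2 CPM in whole kidney (6.10 ± 1.04, FDR 8.05e-05). In glomeruli it stood at 27.6 to 100.4 CPM, wholly above whole kidney, without passing (3.04, FDR 0.0534). Heyl, a target gene of Notch signalling (5.43 ± 1.62, FDR 0.0257), and Gper1, a membrane receptor of oestrogen (5.79 ± 1.83, FDR 0.0366), were each high in 3 of 4 arteriole libraries, with 0.805 CPM of Heyl in library 96 and 0.213 CPM of Gper1 in library 93. Vtn, listed among the pericyte genes, had 0 counts in all 16 microdissected libraries. The median log2 fold change of the list was 1.31 in arterioles, 0.80 in venules, -1.63 in glomeruli and -2.02 in peritubular capillaries. Added together, however, the 15 pericyte genes made up 0.0218 to 0.0428% of a glomerular library. This lay wholly above the 0.00925 to 0.0129% of whole kidney. The median over the 13 tested genes and the sum over all 15 thus pointed in opposite directions for glomeruli. For peritubular capillaries the sum, at 0.000746 to 0.0125%, overlapped with whole kidney. No gene of the pericyte list was called in glomeruli, peritubular capillaries or venules by edgeR.

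**Figure D3:**
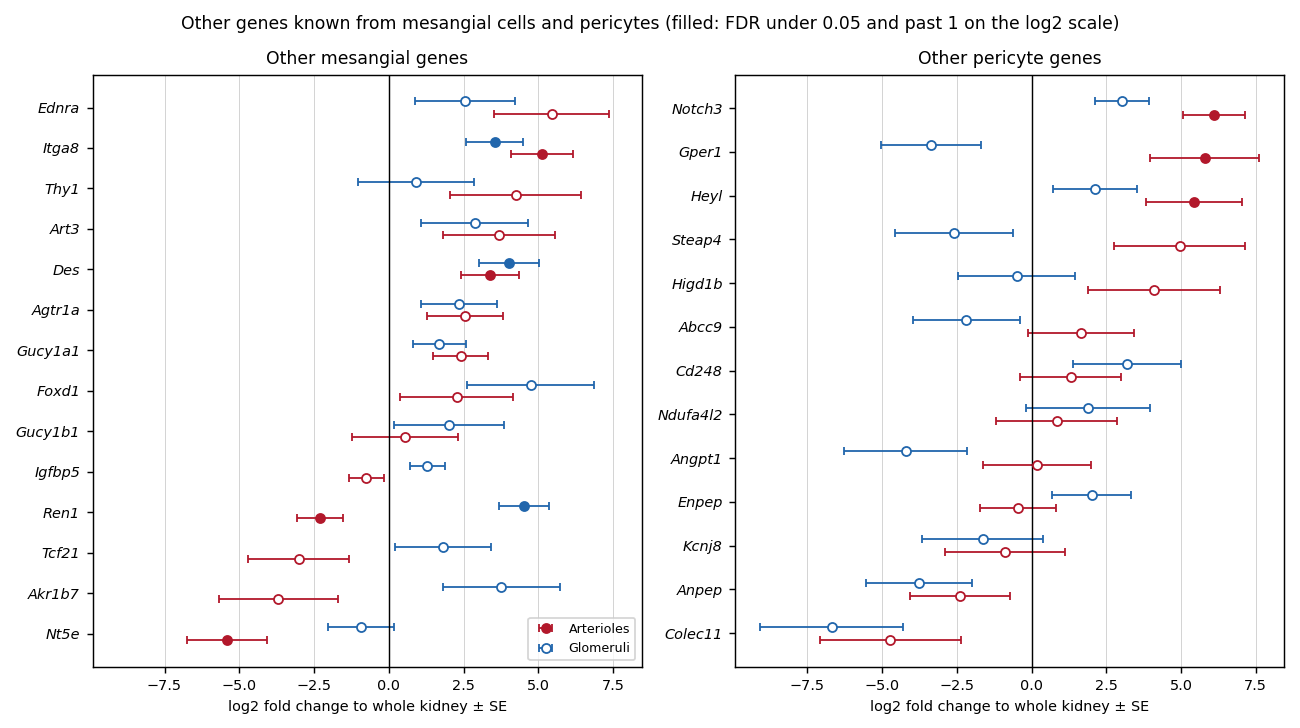
Log2 fold change to whole kidney with its standard error for the tested genes of the other mesangial and other pericyte lists, in arterioles and in glomeruli, ordered by the arteriolar value. Filled points passed FDR under 0.05 and a log2 fold change past 1: Itga8 and Des are filled in both compartments, Ren1 is filled on opposite sides, and the 3 filled pericyte genes, Notch3, Gper1 and Heyl, are filled in arterioles.

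Markers of other cell types moved with the same compartments. Smooth muscle contractile genes took 1.95 to 3.19% of the counts in arterioles, 0.238 to 0.371% in glomeruli, 0.128 to 0.161% in venules, 0.0560 to 0.0729% in peritubular capillaries and 0.0605 to 0.0771% in whole kidney. Of the 12 genes of that list, 11 were called higher than whole kidney in arterioles, 3 in glomeruli and 3 in venules. Of all genes, 5.78%, 1.59% and 0.203% were called higher in these groups, and 5.50% lower in arterioles. These shares also stand beside the counts of the lists that follow. Rgs5, Cspg4 and Mcam thus stood highest where smooth muscle genes did. By group mean, fibroblast genes were also highest in arterioles (0.300%, with venules at 0.204%). Podocyte genes took 1.07 to 1.34% in glomeruli, 0.0954 to 0.173% in arterioles and 0.0205 to 0.0595% in the remaining groups, and 10 of 10 were called higher in glomeruli, against 3 higher and 2 lower in arterioles. Ptn and Sfrp2 stood highest where podocyte genes did. Endothelial genes and the other mesangial genes were also highest in glomeruli, with mean shares of 0.763% and 0.285%, so this match is not particular to podocytes. Endothelial genes took 0.284 to 0.400% in arterioles, 0.656 to 0.879% in glomeruli, 0.118 to 0.180% in venules, 0.0566 to 0.1305% in peritubular capillaries and 0.0747 to 0.0805% in whole kidney, with 8 of 13 called higher in arterioles and 8 of 13 in glomeruli. Fibroblast genes took 0.265 to 0.359% in arterioles, 0.137 to 0.301% in venules, 0.0867 to 0.111% in glomeruli, 0.0107 to 0.0248% in peritubular capillaries and 0.0442 to 0.0493% in whole kidney. Proximal tubule genes took 6.35 to 8.34% in peritubular capillaries, 4.04 to 4.40% in whole kidney, 2.36 to 2.90% in venules, 0.690 to 1.03% in glomeruli and 0.530 to 1.38% in arterioles. Erythrocyte genes took 1.06 to 4.16% in arterioles, 1.38 to 1.75% in glomeruli, 1.98 to 4.87% in venules, 0.0812 to 0.182% in peritubular capillaries and 0.238 to 0.458% in whole kidney. Distal tubule and collecting duct genes took 0.304 to 0.351% in peritubular capillaries and 0.374 to 0.409% in whole kidney, above the 0.0396 to 0.147% of arterioles and glomeruli, and leukocyte genes 0.0128 to 0.0627% over all libraries. None of the genes of these marker lists was at 0 counts over a whole group. The part of these cell types in the levels of the 9 genes was not tested.

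**Figure D4:**
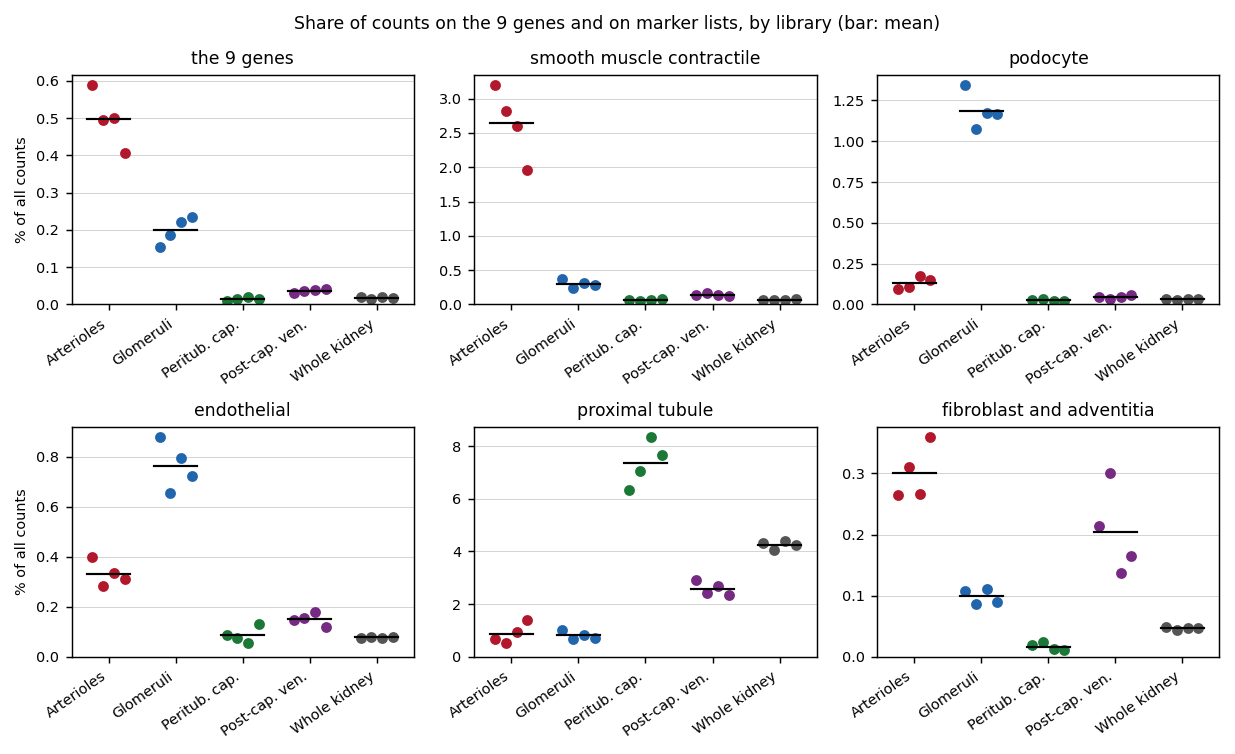
Share of all counts, in percent, taken by the 9 genes and by 5 lists of cell type markers in each library, with linear axes that start at 0 and differ between panels. Points are libraries, ordered 93, 96, 98 and 100 within a group, and bars are group means. Group means of the 9 genes were 0.498% (arterioles) and 0.199% (glomeruli), and most of the arteriolar share was Rgs5. Smooth muscle genes were highest in arterioles, podocyte and endothelial genes in glomeruli and proximal tubule genes in peritubular capillaries.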

How the data were processed

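The samples were 20 QuantSeq 3′ mRNA libraries, 4 per group. By the study's methods and the submitters' processing notes, the authors cleaned reads with bbduk, mapped them by STAR 2.7 on GRCm38.p6 and counted genes with HTSeq 0.13; the notes also list GRCm39 and featureCounts without a role. The deposited values are raw read counts per gene with no normalization. No source used here gives the strand setting or a use of molecular identifiers, so precision covers counting and replicate spread. Of 168 value columns, 20 were assigned to groups by their names and header lines, and 148 were not used. Library numbers come from the column names and are not tied to labelled replicates, and the name of capillary 96 holds extra letters that no source used here explains.

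The tests were run in edgeR 4.0.16 under R 4.3.3, with TMM scaling, the filterByExpr filter, the version 3 quasi-likelihood F test and Benjamini-Hochberg FDR over all genes tested. All 20 libraries were fitted for comparisons with whole kidney, and the 16 microdissected libraries for the others. A standard error is the absolute log2 fold change divided by the square root of F. The code was tested on simulated data. Alternatives were DESeq2 1.42.0, its scaling in edgeR, no filter, the version 4 form, only the libraries compared, a replicate block and each library left out. No source used here says whether the same library number marks the same mouse. Over 40 same-numbered pairs, deviations from group means correlated at -0.0456 to 0.0626, so the block was kept as an alternative, and a shared mouse was not excluded by this.

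The text names all 9 members, up to 3 further genes per related list with the smallest p against whole kidney, every called gene of the other mesangial and pericyte lists, and the 3 nearest profiles of each member, passing over predicted genes and pseudogenes. For Ptn, 1 of these profiles is not reported here. Vtn was named after its counts were seen, and genes that share exon bases with a member were named for that overlap. The members and lists were chosen with earlier results of these data known. Coordinates are from GENCODE M21, counted from 1, and 99.8% of identifiers matched.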

Additional observations from a re-analysis of the deposited data

Results flagged for a closer look

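Each of the 9 genes was checked in each of the 5 groups for a library that stood far from the other 3 of its group, 45 checks in all, and chance flags about 1 in 20. In peritubular capillaries, Cspg4 stood at 45.2 CPM in library 98 and at 2.24, 4.87 and 8.02 CPM in the others, so the gap took 0.866 of the range of the group. In arterioles, Gata3 stood at 465.1 CPM in library 96 and at 202.7, 227.1 and 244.7 CPM in the others, a gap of 0.840 of the range. The cause of neither was tested.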

How the results depend on the processing

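Over the single genes, 1833 recomputed values kept their direction and call, 75 lost a call, 62 gained one and 43 changed sign; the cause was not tested except where fewer libraries or genes entered. DESeq2's scaling moved the median log2 fold change of all genes from 0.22 to 0.39 for arterioles against whole kidney and from 0.27 to 0.55 for arterioles against glomeruli. The number of the 9 genes called moved as follows. The share of all genes called under each of these settings is not given here, so a higher number may go with more calls over all genes. In peritubular capillaries against the other compartments (main 6) it was 9 with DESeq2, 4 with edgeR's version 4 form and 4 to 6 with single libraries left out. In glomeruli against whole kidney (main 6) it was 8 with the version 4 form and with only the libraries compared, 7 with DESeq2, 5 without the filter and 4 to 5 with single libraries left out. In peritubular capillaries against whole kidney it was 1 with DESeq2 and 1 with only the libraries compared, in place of 0, and in venules against whole kidney 2 and 2, in place of 1. DESeq2 and edgeR's version 4 form gave 5 and 5 for arterioles against glomeruli (main 3), 9 and 8 for glomeruli against peritubular capillaries (main 5), and 4 and 4 for glomeruli against venules (main 2), where only the libraries compared also gave 4. DESeq2 gave 2 for peritubular capillaries against venules (main 0). With single libraries left out, the count was 0 to 1 for venules against whole kidney, 0 to 2 for venules against the other compartments, 3 to 4 for arterioles against venules (main 5), and 1 to 2 for glomeruli against venules.

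With the replicate block, 5 genes were called in arterioles against whole kidney (Pdgfrb lost, FDR 0.0665), 5 in peritubular capillaries against the others (Mcam and Ptn lost, Cspg4 gained), 4 in arterioles against venules (Ptn lost) and 6 in glomeruli against peritubular capillaries (Cspg4 gained). The block changed no other call. The sources do not state whether libraries of 1 number share a mouse, and the deviations of same-numbered libraries did not correlate over 0.1 in any pair. The log2 fold changes that changed sign under it were Sfrp2 in arterioles against whole kidney (-0.10, main 0.35), Cspg4 in peritubular capillaries against whole kidney (-0.51, main 0.05) and Mcam in venules against whole kidney (-0.050, main 0.018).

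None of the values that changed sign had passed. Cspg4 in peritubular capillaries was -0.070 with DESeq2's scaling, -0.027 without the filter, -0.071 with DESeq2 and -0.063 with only the libraries compared. Mcam in venules was -0.031 with DESeq2's scaling, -0.020 with the version 4 form, -0.032 with DESeq2 and -0.00010 with only the libraries compared. Pdgfb in arterioles against glomeruli was 0.067 with DESeq2's scaling and 0.067 with DESeq2, and Pdgfrb in venules against the other compartments 0.038 without the filter. With single libraries left out, ranges against whole kidney were -1.06 to 0.73 for Sfrp2 in arterioles, -1.54 to 0.41 for Cspg4 and -0.27 to 0.15 for Serpine2 in peritubular capillaries, and -1.64 to 0.018 for Pdgfb and -1.03 to 0.32 for Mcam in venules. Against the other compartments they were -0.40 to 0.26 for Pdgfrb in arterioles, and -0.30 to 0.18 for Pdgfrb and -0.083 to 0.97 for Sfrp2 in venules. For arterioles they were -0.76 to 0.12 for Pdgfb against glomeruli, -0.84 to 0.017 for Ptn against peritubular capillaries and -0.43 to 0.34 for Pdgfrb against venules. Among the values that could not be tested with only the libraries compared, because the gene did not pass the filter, was Ptn in arterioles against venules. Low counts limit Ptn, Sfrp2 and Mcam in peritubular capillaries, and Ptn in arterioles. Counts were also low in venules, with 12, 23, 52 and 47 for Cspg4, 12, 10, 19 and 79 for Mcam and 196, 17, 31 and 17 for Pdgfb. Pdgfb in peritubular capillaries rests on 49, 11, 30 and 2 counts, and Sfrp2 in arterioles on 10, 3, 167 and 27.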
